A study of Homo sapiens
Mus musculus and Mus musculus and Homo sapiens with 16 samples.

Results

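Genes of the heat shock and chaperone machinery were followed in REC-1 cells, a human mantle cell lymphoma line, before and after contact with MS-5 cells, a stromal line from mouse bone marrow. The 10 genes were HSPA1A, HSPA1B, HSPA8, HSPH1, DNAJB1, HSP90AA1, HSP90AB1, HSPD1, HSPE1 and HSPA5, chosen by symbol out of the 58051 human genes of the count table. RNA-seq counts were available for 4 libraries each of REC-1 cells grown alone (Sep), REC-1 cells that stayed in suspension above the stroma (Susp), REC-1 cells attached to the stroma (Adh) and MS-5 cells grown alone. Cells were cultured for 24 h without drug, and every group was an unmodified cell line. The Adh libraries held RNA of both species, because attached cells were lysed together with the stroma and read pairs were assigned to human or mouse afterwards. The study describes 4 independent experiments. The sample labels give a replicate number from 1 to 4 and a sample code whose number is shared by same-numbered libraries. They do not say whether 1 number marks 1 experiment, so p-values here measure the spread between these libraries.

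Chaperones bind unfolded or partly folded proteins and release them in cycles driven by ATP. Members of the HSP70 family (HSPA1A, HSPA1B and HSPA8 in the cytosol, HSPA5 in the endoplasmic reticulum) grip short hydrophobic stretches, J-domain proteins such as DNAJB1 deliver clients to them, and HSPH1 is an HSP110 protein that exchanges their nucleotide. HSP90AA1 and HSP90AB1 are the inducible and the constitutive cytosolic HSP90, which finish the folding of kinases and other signaling proteins. HSPD1 and HSPE1 form the barrel and the lid of the mitochondrial chaperonin. Heat or proteotoxic stress activates the transcription factor HSF1, which binds heat shock elements made of inverted GAA units, whereas HSPA5 is a classical target of the unfolded protein response through the endoplasmic reticulum stress element. In B cells HSPA5, also called BiP, binds immunoglobulin heavy chains before they pair with light chains.

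The DNA upstream of most of the genes holds the letters of one of these elements, and 30-base stretches are printed to show which gene has which. Sequences and positions are from GRCh38 with the start site of the canonical transcript in GENCODE release 44, written 5′ to 3′ on the strand of the gene. Within 250 bases upstream of the start, both strands were searched for the 3-unit heat shock element GAANNTTCNNGAA, its 2-unit parts GAANNTTC and TTCNNGAA, and the endoplasmic reticulum stress element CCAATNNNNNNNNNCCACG. The shorter forms lie inside the longer heat shock element and therefore overlap it. Capitals mark each match to a heat shock element, or, for HSPA5, to the endoplasmic reticulum stress element.
HSPA8: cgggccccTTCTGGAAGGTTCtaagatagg
HSPH1: gccgcagaTTCTGGAAAGTTCtgatcagtg
HSPD1: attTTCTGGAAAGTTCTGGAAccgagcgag
HSP90AA1: gagggttcTTCCGGAAGGTTCgggaggcTT
HSPA1A: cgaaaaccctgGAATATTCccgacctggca
HSPA1B: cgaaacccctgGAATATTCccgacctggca
DNAJB1: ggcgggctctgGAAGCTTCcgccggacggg
HSPA5: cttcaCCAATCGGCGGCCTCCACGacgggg

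These stretches lie at chr11:123062170-123062199 for HSPA8, chr13:31161942-31161971 for HSPH1, chr2:197500059-197500088 for HSPD1 and chr14:102087111-102087140 for HSP90AA1, all on the minus strand. Those of HSPA1A and HSPA1B are at chr6:31815426-31815455 and chr6:31827622-31827651 on the plus strand, and those of DNAJB1 and HSPA5 at chr19:14518426-14518455 and chr9:125241385-125241414 on the minus strand. The 3-unit element was found upstream of 4 of the 10 genes (HSPA8, HSPH1, HSPD1 and HSP90AA1) and of 65 of 20032 protein-coding promoters (0.324%). A heat shock element of any of the 3 forms was found upstream of 7 of the 10 and of 9.49% of all promoters. HSP90AB1, HSPE1 and HSPA5 held none in this window. HSPE1 and HSPD1 are neighbours transcribed away from each other, with start sites 539 bases apart. The 3-unit element printed for HSPD1 lies between these start sites and outside the HSPE1 window. The endoplasmic reticulum stress element was found only upstream of HSPA5 among the 10, and upstream of 0.105% of all promoters. A match to letters is a description and does not show that a factor was bound.

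Human counts per library ranged from 9325412 to 12597891 in Sep, from 15000927 to 21467832 in Susp and from 7758979 to 13241751 in Adh, and 9 of 10 B cell markers exceeded 1 CPM (counts scaled to library size) in every library. Human counts made up 28.2% of all counts in Adh replicate 1, 26.0% in replicate 2, 18.3% in replicate 3 and 20.2% in replicate 4. Human counts on 16 stromal marker genes amounted to 0.0451% to 0.0827% of the mouse counts on the same genes in the Adh libraries. Their summed human level overlapped between groups, at 24.9 to 29.4 CPM in Sep, 28.9 to 38.8 CPM in Susp and 26.9 to 33.9 CPM in Adh. Most of this sum was VIM, with means of 17.53, 22.55 and 20.22 CPM in Sep, Susp and Adh, so the overlap mainly describes that gene. COL1A1 had means of 0.2138, 0.143 and 0.2035 CPM. In each group 5 of the 16 were at 0 in every library, though not the same 5 throughout. In such bulk libraries fewer cells of a kind and less RNA per cell cannot be told apart.

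The chaperone genes took a steady share of the REC-1 transcriptome. Together they held 1.296% ± 0.0429 of human counts in Sep, 1.254% ± 0.0537 in Susp and 1.351% ± 0.0645 in Adh (SD, n = 4). Per kilobase of the union of exons (RPKM), HSP90AB1 was highest at 1322 ± 60.6 (SD, n = 12), followed by HSPA8 at 783 ± 96.9 and HSP90AA1 at 611 ± 49.6. The lowest HSP90AB1 library, at 1227 RPKM, lay above the highest HSPA8 library, at 913 RPKM, but the order of this pair depended on the length used. Per kilobase of the canonical transcript, a length added after the data were seen, HSPA8 was at 1678 ± 208 RPKM and HSP90AB1 at 1542 ± 70.7 RPKM (SD, n = 12), with overlapping libraries, and HSP90AA1 was below both at 965 ± 78.2 RPKM. HSPD1 reached 137 ± 12.5 RPKM, HSPA5 92.3 ± 6.98 RPKM and HSPH1 46.2 ± 3.18 RPKM. HSPE1 at 15.6 ± 3.48 RPKM and DNAJB1 at 13.3 ± 2.41 RPKM overlapped each other. Among 12773 tested genes with a known length, the mean RPKM of HSP90AB1, HSPA8 and HSP90AA1 stood at percentiles 99.89, 99.78 and 99.66, and that of DNAJB1 at percentile 73.77.

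HSPA1A and HSPA1B, the stress-inducible HSP70 genes, were close to 0 throughout. HSPA1A had 2 counts over all 12 libraries, both in 1 library, and HSPA1B had 23 counts, with at most 4 in a library and 0 in 4 libraries. The highest level was 0.133 CPM for HSPA1A and 0.514 CPM for HSPA1B, while the limit that a count of 0 allows (3 counts) corresponded to 0.14 to 0.387 CPM. Both genes were below the low-count filter, so 8 of the 10 genes were tested. Nearby on chromosome 6, LSM2 had 524 to 1642 counts and BAG6 2690 to 8420 counts per library, while HSPA1L, a germ cell HSP70, had 0 to 6.

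The authors kept only reads with a single position in the genome, so a low count of these genes need not mean a low transcript level. HSPA1A (chr6:31815543-31817946) and HSPA1B (chr6:31827738-31830254) have coding sequences of 1923 bases that differ at 4 bases, an identity of 99.792%, with 0 differing residues in the protein. Their longest identical run spans 1709 bases. Coding bases 1846 to 1905 are printed below to show 2 of the 4 differences, in capitals, in otherwise identical sequence.
HSPA1A: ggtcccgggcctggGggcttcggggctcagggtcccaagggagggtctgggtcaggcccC
HSPA1B: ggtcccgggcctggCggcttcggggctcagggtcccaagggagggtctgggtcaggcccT

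Of the 100-base windows along the HSPA1A transcript, 72.4% had an exact match elsewhere in the genome, and 68.9% of those along HSPA1B did. The remaining 27.6% of HSPA1A windows and 31.1% of HSPA1B windows occurred once. How much of the expression of these genes was lost in counting was not tested. The other 8 genes were far less affected, with 0% of windows repeated for HSPH1 and DNAJB1, 1.71% for HSP90AB1, 2.28% for HSPA5, 3.07% for HSP90AA1 and 3.74% for HSPA8. For HSPD1 and HSPE1 the shares were 12.3% and 11.6%. A second kind of sharing is overlap with exons of other genes. In GENCODE release 44 it took in 36.6% of the HSPA1B transcript (gene ENSG00000285565) and 34.5% of the HSPE1 transcript. The authors counted on the older Ensembl release 87, and the effect of these overlaps on the counts was not tested. The genes overlapping HSPE1 include the read-through gene HSPE1-MOB4, which was listed with 0 counts. Over 61 pseudogene rows named after the 10 genes, 621 counts were recorded in the 12 libraries, 138 of them on HSPD1P1.

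**Figure D1:**
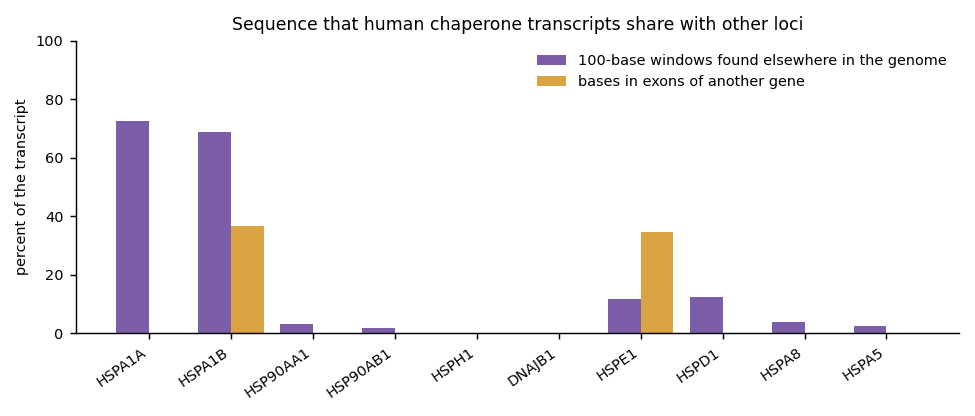
For each of the 10 human chaperone genes, purple bars give the percent of the canonical transcript's 100-base windows that match elsewhere in the genome exactly. Yellow bars give the percent of its bases that lie in exons of another gene in GENCODE release 44, which is newer than the annotation used for counting. HSPA1A and HSPA1B stand at 72.4% and 68.9% repeated windows, and HSPA1B and HSPE1 share 36.6% and 34.5% of their bases with other genes.

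Comparison of Adh with Susp cells asks what attachment to stroma changes within the coculture. Calls required an adjusted p of 0.05 or less together with a change of 1.5-fold or more. No chaperone gene was called (0 of 8, by edgeR's quasi-likelihood test with Benjamini-Hochberg adjustment, and 0 of 8 by DESeq2), where 0.778% of all tested genes were called. The 95% interval of the fold change lay inside 1.5-fold in both directions for 8 of 8 genes, against 57% of all tested genes. Intervals tend to be narrower at higher counts, and the 8 genes stood at percentiles 73.77 to 99.89 by mean RPKM. These shares therefore cover genes of unlike level, here and in the other REC-1 comparisons. The median log2 fold change of the 8 genes was 0.06, beside -0.01 over all tested genes. An unadjusted p under 0.05 was found for 1 of the 8 and for 18% of all genes. For 2 genes, HSP90AA1 and HSPD1, every Adh library lay above every Susp library, as was the case for 5.61% of all tested genes.

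Comparison of Susp with Sep cells sets cells that shared a dish with stroma, but did not attach, beside cells grown alone. Adh with Sep combines this with attachment. In the study, lymphoma lines were maintained in RPMI medium and cocultures under the conditions of the stromal line, which used another medium. The medium of the Sep libraries is not stated there, and the part of medium in these differences was not tested. The 3 comparisons share libraries and are not independent. None of the 8 genes was called in Susp against Sep (background 0.731%) or in Adh against Sep (background 2.4%). DESeq2 also called 0 in both. The median log2 fold changes were 0.01 and 0.12, beside -0.0059 and -0.0034 over all tested genes. The interval lay inside 1.5-fold for 7 of 8 genes in each, against 56.2% and 57.4% of all genes, and HSPE1 was the exception in both. An unadjusted p under 0.05 was found for 1 and for 3 of the 8 genes, beside 16.7% and 20.2% of all genes. Groups were fully separated, with coculture higher, for 1 gene in Susp against Sep (HSPA5) and for 2 in Adh against Sep (HSPA5 and HSPD1), where the background shares were 5.5% and 7.42%.

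**Figure D2:**
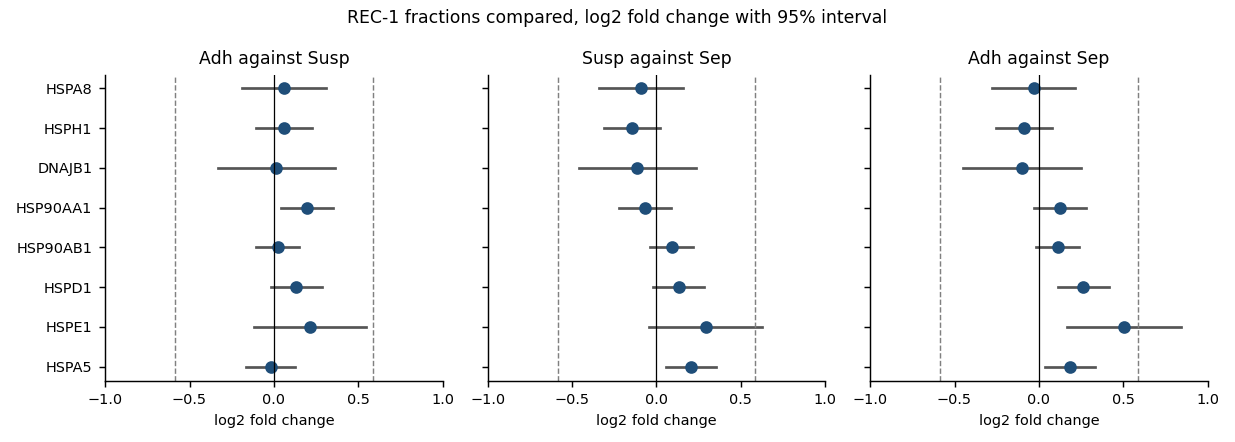
Points give the log2 fold change of each tested chaperone gene in REC-1 cells (n = 4 libraries a group), lines its 95% interval and dashed lines a 1.5-fold change in either direction. All 8 intervals lie between the dashed lines in Adh against Susp, and only that of HSPE1 crosses one in the other 2 comparisons.

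HSPA8, the constitutive cytosolic HSP70, was measured in Sep at 3803, 3654, 4139 and 4029 CPM in replicates 1 to 4. In Susp the levels were 3194, 3119, 4132 and 4225 CPM, and in Adh 3504, 3129, 4235 and 4427 CPM. Libraries numbered 3 and 4 lay above libraries numbered 1 and 2 in each of the 3 fractions, while the fractions overlapped. The means were 3906 ± 219 CPM in Sep, 3667 ± 592 CPM in Susp and 3824 ± 610 CPM in Adh (SD, n = 4). HSPA8 differed by 0.06 on the log2 scale between Adh and Susp (adjusted p = 0.806 by edgeR), by -0.09 between Susp and Sep and by -0.03 between Adh and Sep.

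DNAJB1, the J-domain partner of HSP70 in the heat response, showed the same division of libraries. Sep libraries measured 91.0, 109, 127 and 131 CPM, Susp libraries 84.6, 88.0, 127 and 123 CPM, and Adh libraries 91.6, 89.0, 107 and 139 CPM. Replicates 3 and 4 were again above replicates 1 and 2 in every fraction, and the 3 fractions overlapped. The log2 difference of DNAJB1 was 0.01 between Adh and Susp (95% interval -0.33 to 0.36, adjusted p = 0.97 by edgeR). Over the 12 libraries, log2 CPM of DNAJB1 and HSPA8 gave a Pearson r of 0.88, a description over libraries that share depth and fraction. In the Adh fraction the human share of counts was lower in replicates 3 and 4 (18.3% and 20.2%) than in replicates 1 and 2 (28.2% and 26.0%), and its part in these levels was not tested.

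HSPH1, the HSP110 exchange factor, did not follow that division. It measured 428, 394, 413 and 402 CPM in Sep, 389, 326, 359 and 403 CPM in Susp and 391, 376, 374 and 400.1 CPM in Adh. Susp replicate 2 was the lowest of the 12 libraries, and the fractions overlapped. The log2 differences of HSPH1 were 0.06 for Adh against Susp, -0.15 for Susp against Sep and -0.09 for Adh against Sep, with adjusted p between 0.339 and 0.697 (edgeR).

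**Figure D3:**
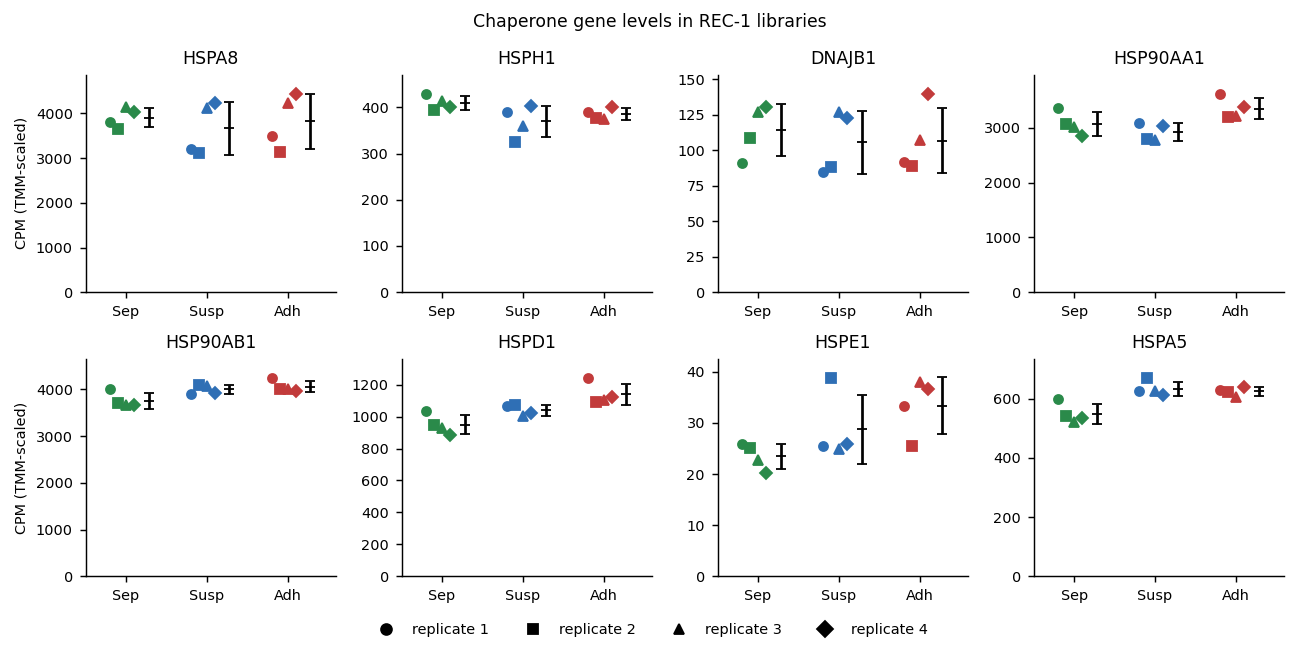
Points give the level of each tested chaperone gene in each REC-1 library (CPM on TMM-scaled library sizes, vertical axes from 0), with marker shape for the replicate number. Black bars give the mean ± SD of 4 libraries in Sep, Susp and Adh. HSPA8 and DNAJB1 spread by replicate number in every fraction, and HSPE1 has 1 high Susp library at 38.7 CPM.

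HSP90AA1, the inducible HSP90, measured 3359, 3065, 3007 and 2846 CPM in Sep. Its Susp libraries held 3094, 2794, 2780 and 3036 CPM and its Adh libraries 3612, 3200.0, 3207 and 3382 CPM. Every Adh library was above every Susp library, by a narrow gap, while Sep libraries spanned both. The mean was 3350 ± 193 CPM in Adh and 2926 ± 162 CPM in Susp (SD, n = 4). This difference of 0.20 ± 0.07 on the log2 scale (SE, 95% interval 0.04 to 0.35) gave an unadjusted p of 0.0155 and an adjusted p of 0.186 in edgeR's model.

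HSP90AB1, the constitutive HSP90, measured 4016, 3698, 3668 and 3656 CPM in Sep. Susp libraries held 3909, 4095, 4064 and 3929 CPM and Adh libraries 4235, 4012, 4014 and 3972 CPM. All fractions overlapped, with Sep replicate 1 inside the Adh and Susp ranges and 3 of 4 Adh libraries inside the Susp range. The log2 differences of HSP90AB1 were 0.02 for Adh against Susp, 0.09 for Susp against Sep and 0.11 for Adh against Sep, with adjusted p of 0.872, 0.445 and 0.325 (edgeR).

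HSPD1, the barrel of the mitochondrial chaperonin, measured 1034, 946.8, 929.9 and 887.7 CPM in Sep. It measured 1066, 1072, 1002 and 1020.2 CPM in Susp and 1239, 1092, 1103 and 1123 CPM in Adh. The Adh libraries lay above all Susp and all Sep libraries, and Sep replicate 1 overlapped the Susp range. HSPD1 was 1.20-fold higher in Adh than in Sep (log2 0.26 ± 0.07 SE, 95% interval 0.11 to 0.42), with an unadjusted p of 0.00207 and an adjusted p of 0.0554 by edgeR. Adh against Susp and Susp against Sep each gave 0.13 on the log2 scale, with adjusted p of 0.342 and 0.352 (edgeR).

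HSPE1, its lid, was the least abundant of the 8 in CPM. It measured 25.8, 25.0, 22.8 and 20.3 CPM in Sep, 25.5, 38.7, 24.8 and 25.9 CPM in Susp and 33.2, 25.5, 38.0 and 36.7 CPM in Adh. Susp replicate 2 stood apart from the other Susp libraries, and Adh replicate 2 was within the Sep range. HSPE1 was 1.42-fold higher in Adh than in Sep (log2 0.50 ± 0.16 SE, 95% interval 0.16 to 0.84), with an adjusted p of 0.0908 by edgeR. Susp against Sep gave a log2 difference of 0.29, which fell to 0.10 without Susp replicate 2, and Adh against Susp gave 0.21, which became 0.40 without that library. The HSPE1 level per length was below that of HSPD1, with which it is transcribed in opposite directions, in every library. How reads in the bases it shares with HSPE1-MOB4 were assigned was not tested.

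HSPA5, the HSP70 of the endoplasmic reticulum, measured 599, 543, 522 and 534 CPM in Sep. It measured 625, 669, 627 and 614 CPM in Susp and 628, 624, 607 and 641 CPM in Adh. Every coculture library, suspended or attached, was above every Sep library, by a gap that was narrow at Sep replicate 1. HSPA5 was higher by 0.21 ± 0.07 on the log2 scale in Susp (SE, 95% interval 0.06 to 0.35, unadjusted p = 0.00938, adjusted p = 0.177 by edgeR). In Adh it was higher than in Sep by 0.18 (95% interval 0.04 to 0.33, unadjusted p = 0.0173, adjusted p = 0.145 by edgeR). Adh and Susp overlapped and differed by -0.02.

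Among the tested genes outside the 10, those whose log2 CPM over the 12 libraries most resembled HSPA5 were DUSP5 (Pearson r = 0.96, Spearman rho = 0.87), POLE3 (r = 0.96), NENF (r = 0.95), CXCL10 (r = 0.95) and H3F3B (r = 0.95). The genes most like the mean of the other 7 tested chaperone genes were ASUN (r = 0.96, rho = 0.92), YIPF5 (r = 0.92), PPHLN1 (r = 0.91), ST3GAL1 (r = 0.90) and RNF13 (r = 0.90). Those 7 chaperone genes did not share 1 pattern, since r between pairs of them ran from -0.49 (HSPH1 and HSPE1) to 0.88 (DNAJB1 and HSPA8). Their mean thus mixes opposed patterns. Within the 8, HSPA5 went most closely with HSP90AB1 (r = 0.88) and least with HSPH1 (r = -0.57). These values describe 12 libraries that share fractions and depth.

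The wider chaperone network gave few calls. Of 117 further genes in 8 lists, 102 were tested, and 0 rose and 2 fell in Adh against Susp, 0 changed in Susp against Sep, and 1 fell in Adh against Sep. Of all tested genes 0.109% rose and 0.669% fell in the first, 0.731% changed in the second and 1.82% fell in the third. Both genes belonged to the 15 HSP90 co-chaperones, a list that did not fall as a whole. Its values were above 0 for 7 of 15 genes in Adh against Susp and for 13 of 15 in Adh against Sep. The list medians were -0.0005 and 0.14 on the log2 scale, beside -0.0051 and -0.0034 over all tested genes. AHSA2, related to the activator of the HSP90 ATPase and listed as a pseudogene in the newer annotation, was at 16.8 to 25.1 CPM in Sep, 16.6 to 18.8 CPM in Susp and 9.24 to 10.7 CPM in Adh. Its Adh libraries lay below all others, and AHSA2 fell by 0.81 ± 0.14 on the log2 scale against Susp and fell by 1.05 ± 0.14 against Sep (SE, adjusted p = 0.00753 and 0.000385 by edgeR). PPID, the cyclophilin that binds HSP90, was at 3.98 to 6.07 CPM in Adh and at 7.20 to 9.82 CPM in Susp. PPID fell by 0.78 ± 0.17 (SE, adjusted p = 0.04 by edgeR) against Susp, a call that held without Sep replicate 1 or Adh replicate 2 and was lost without any 1 of the other 10 libraries (adjusted p of 0.0509 to 0.138), while the difference stayed between -0.90 and -0.70. The PPID call was also lost with only the compared groups in the model (adjusted p = 0.0915) and with mitochondrial genes removed (adjusted p = 0.0501). Against Sep its difference was -0.61 (adjusted p = 0.0665), which was called by DESeq2 (adjusted p = 0.0358) and without Susp replicate 2 (adjusted p = 0.0401).

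The 14 subunits of the cytosolic chaperonin TRiC and of prefoldin, which fold actin and tubulin, had 0 calls. Their median log2 fold changes were 0.10 for Adh against Susp, 0.12 for Susp against Sep and 0.20 for Adh against Sep, with 11, 14 and 14 of 14 values above 0. Over all 102 tested genes of the 8 lists, 64, 71 and 81 values were above 0, with medians of 0.05, 0.09 and 0.13. The medians over all tested genes were -0.0051, -0.0059 and -0.0034. In Adh against Sep, 20 of 23 endoplasmic reticulum genes and 12 of 13 mitochondrial genes of the lists were also above 0. An unadjusted p under 0.05 was found for 0, 2 and 8 of the 14, beside 18%, 16.7% and 20.2% of all tested genes. CCT5, the subunit with the smallest p in Adh against Susp, gave 0.14 ± 0.07 there (SE, adjusted p = 0.289) and 0.23 ± 0.07 in Adh against Sep (SE, adjusted p = 0.0645 by edgeR). The 23 endoplasmic reticulum chaperones and unfolded protein response genes likewise had 0 calls, with medians of 0.07, 0.11 and 0.13 in the 3 comparisons, and DNAJC10, a disulfide reductase with a J domain, gave 0.29 (adjusted p = 0.198) in Adh against Susp. The mitochondrial list of 13 genes had a median of 0.16 in Adh against Sep, and its GRPEL2, an exchange factor for mitochondrial HSP70, gave 0.28 (adjusted p = 0.153) in Adh against Susp. Of the 10 small heat shock proteins only HSPB11, an intraflagellar transport protein despite its symbol, passed the filter, with a difference of -0.10 between Adh and Susp.

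HSF1, the master regulator of the heat shock response, gave log2 differences of -0.33 for Adh against Susp, 0.33 for Susp against Sep and -0.01 for Adh against Sep (adjusted p = 0.291, 0.31 and 0.987 by edgeR). None of the 6 tested heat shock factors and regulators was called. In the cytosolic HSP70 list of 14 tested genes BAG2, a co-chaperone that restrains the ubiquitin ligase CHIP, had the smallest p in Adh against Susp, with 0.37 (adjusted p = 0.111). Among 16 tested J-domain proteins it was DNAJC5, a synaptic vesicle chaperone, with -0.35 (adjusted p = 0.152).

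The mouse side of the same Adh libraries gives the counterparts in MS-5 cells, compared with MS-5 cells grown alone. All 10 were tested among 12201 mouse genes and 0 were called by edgeR or by DESeq2, where the background was 0.205%. An unadjusted p under 0.05 was found for 5 of the 10, against 11.3% of all mouse genes, and 8 of the 10 values were below 0, with a median of -0.09 beside -0.0017 over all mouse genes. The interval lay inside 1.5-fold for 8 of 10 genes, against 79.7% of all mouse genes. Hspa1b had 499 to 1762 counts per library, whereas human HSPA1B had at most 4. Repeated sequence was not measured for the mouse genes.

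Hspa1b measured 47.8, 49.7, 74.7 and 94.1 CPM in MS-5 alone and 28.5, 33.6, 43.6 and 56.0 CPM in coculture. Coculture was lower at each replicate number, but Adh replicate 4 exceeded MS-5 replicates 1 and 2, so the groups overlapped. Hspa1b was 0.606-fold in coculture (log2 -0.72 ± 0.21 SE, 95% interval -1.17 to -0.27), with an adjusted p of 0.163 by edgeR. It was called under 2 of 16 alternative settings, with replicate number added to the model and without the low-count filter. Hspa1a was at 1.12 to 2.89 CPM alone and 0.768 to 1.40 CPM in coculture (log2 -0.91, adjusted p = 0.27), and how reads were divided between this near-identical pair was not tested.

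Hsph1 measured 376, 439.7, 374 and 444 CPM alone and 326, 354, 323 and 326 CPM in coculture. All coculture libraries were lower, as were those of 3.68% of all mouse genes. The log2 difference of Hsph1 was -0.30 ± 0.06 (SE), a fold of 0.814, with an adjusted p of 0.0425 by edgeR, and it stayed within the 1.5-fold minimum. Without that minimum 0.77% of all mouse genes passed. Hsp90aa1 and Hsp90ab1 gave -0.12 and -0.10 on the log2 scale (adjusted p = 0.399 and 0.35). The remaining 5, Hspd1, Hspa8, Hspe1, Dnajb1 and Hspa5, lay between -0.08 and 0.01.

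**Figure D4:**
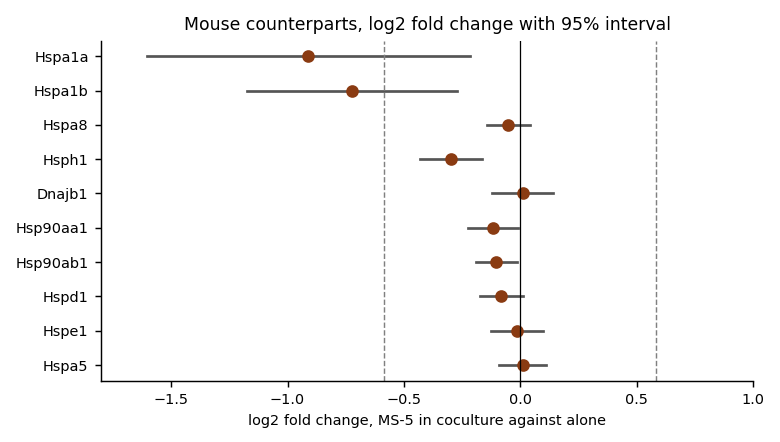
Points give the log2 fold change of the mouse counterparts in MS-5 cells with REC-1 cells attached against MS-5 cells alone (n = 4 libraries a group), lines the 95% interval and dashed lines a 1.5-fold change. Hspa1a and Hspa1b have the lowest values, -0.91 and -0.72, with wide intervals, and Hsph1 lies at -0.30.

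In the Adh libraries all mouse genes together had 2.54 to 4.46 counts per human count. Mouse counts exceeded human counts by 2.38 to 4.17 times for HSP90AB1, 1.31 to 1.89 times for HSPA8 and 3.67 to 6.71 times for HSPA5. For HSP90AA1 the ratio was 0.63 to 1.25, the lowest of the pairs. HSPE1 and HSPA1B stood at the other end. HSPE1 had 16.6 to 28.5 mouse counts per human count, and HSPA1B had 241.5 or more in the 3 libraries where it had a human count. Both human transcripts share sequence with other loci, as given above, and the part of this in the ratios was not tested.

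The plot of levels by replicate number sets Hspa1b beside HSPA8 and DNAJB1. Hspa1b was higher in libraries 3 and 4 than in libraries 1 and 2 both alone and in coculture, as HSPA8 and DNAJB1 were in REC-1 cells. The mouse counterparts of those human genes were not divided in this way, with Dnajb1 at 57.9 to 63.7 CPM alone and 58.7 to 64.3 CPM in coculture.

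**Figure D5:**
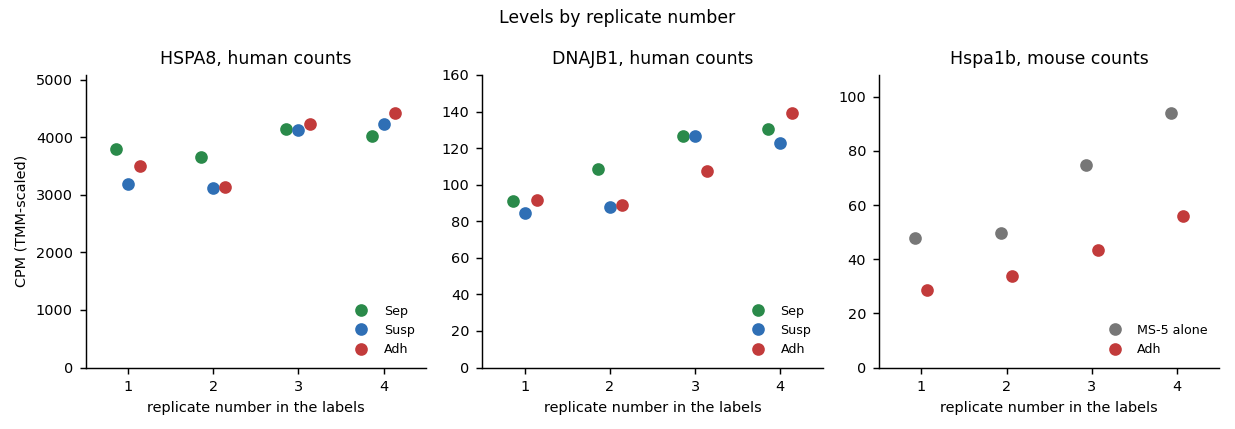
Levels (CPM on TMM-scaled library sizes, axes from 0) are plotted against the replicate number in the labels, which has no order in itself, for HSPA8 and DNAJB1 in REC-1 cells and Hspa1b in MS-5 cells. Points of different groups are set slightly apart sideways. In each group the libraries numbered 3 and 4 lie above those numbered 1 and 2.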

How the data were processed

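RNA-seq libraries (TruSeq RNA v2, poly-A selected) of REC-1 and MS-5 cells were used. The authors assigned read pairs to a species with Xenome, ran STAR 2.5.1b on each species, keeping reads with 1 position, and counted them on Ensembl release 87 genes with featureCounts (Subread 1.5.2). The strand setting is not given in the sources used here. The deposited values were whole-number counts per gene, neither normalized nor filtered. Columns of 20 other samples were not used.

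Counts were analysed in R 4.3.3 with edgeR 4.0.16 (the submitters' processing notes name edgeR 3.22.5). The 12 REC-1 libraries formed 1 model and the 4 Adh and 4 MS-5 libraries, on mouse counts, another, with filterByExpr, TMM scaling and quasi-likelihood F-tests (legacy form). Calls needed a p of 0.05 or less after Benjamini-Hochberg adjustment over all tested genes, and a change of 1.5-fold or more. Intervals are 95%. RPKM used the union of exons in GENCODE release 44, and correlations used log2 CPM (prior count 2). The fits were tested on simulated data. Alternatives were DESeq2 1.42.0, other filters and scalings, a replicate block and leaving out each library. The 10 genes and all lists were chosen with earlier results of these data known. Named list genes were those called, or the one with the smallest p in Adh against Susp in a list without calls.

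Mouse counts per library ranged from 10097555 to 34615602. Among values of 1 to 20, 65% to 79.2% were even in the 20 columns used, so mates may have been counted singly and counting limits are approximate. Floors and depth cover counting error only.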

Additional observations from a re-analysis of the deposited data

Results flagged for a closer look

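Of 44 groups of 4 libraries examined for 1 library far from the other 3, 6 had one, and chance alone marks about 1 in 20. HSP90AB1 was high in Sep replicate 1 (4016 CPM, others 3656 to 3698 CPM) and in Adh replicate 1 (4235 CPM, others 3972 to 4014 CPM). HSPE1 was high in Susp replicate 2 (38.7 CPM, others 24.8 to 25.9 CPM). Among the mouse genes of the Adh libraries, Hsp90aa1 was low in replicate 4 (831 CPM, others 893 to 898 CPM), Hsph1 was high in replicate 2 (354 CPM, others 323 to 326 CPM) and Hspa5 was high in replicate 4 (969 CPM, others 902 to 911 CPM).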

How the results depend on the processing

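Under every alternative tried, 0 of the 8 tested human chaperone genes were called in each comparison. HSPE1 and HSPD1 in Adh against Sep came nearest, with adjusted p of at most 0.05 in 4 and in 5 of 21 alternatives (lowest 0.0167 and 0.0122, both without Susp replicate 2), never with a 1.5-fold change. Of the mouse counterparts 1 was called without the low-count filter (Hspa1b, -0.71, adjusted p = 7.46e-16), 1 with the replicate block (Hspa1b, -0.71, adjusted p = 9.33e-07) and 1 without a fold-change minimum (Hsph1, -0.30, adjusted p = 0.0425), and the cause was not tested for the first. Over its alternatives the adjusted p of Hspa1b ran from 7.46e-16 to 0.45. That of Hsph1 passed 0.05 in 10 of 16 alternatives.

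The replicate numbers share only a sample code in the labels. Same-numbered libraries deviated together at r over 0.1 in 1, 1 and 3 of 4 pairs for Adh against Susp, Susp against Sep and Adh against Sep. In mouse they did so in 2 of 4 pairs. Of the 4 pairs in each, 2, 1, 3 and 3, respectively, correlated best with their own number. By this rule the main models had no block. Such correlations cannot show whether libraries of 1 number came from 1 experiment, so values with the block are given too. The replicate block moved the counts over all tested genes from 100 to 281, from 94 to 175, from 309 to 384 and, in mouse, from 25 to 45, and changed no call of a human chaperone gene.

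Leaving out 1 library gave counts over all genes of 51 (without Adh replicate 1) to 165, 64 to 135, 143 (without Sep replicate 2) to 519 and, in mouse, 8 (without MS-5 replicate 3) to 36. The highest counts were 341 and 217 without the low-count filter and 527 by DESeq2, and 94 in mouse without a fold-change minimum. Small differences changed sign when 1 library was left out, with ranges for Adh against Susp of -0.0005 to 0.0474 for HSP90AB1, -0.14 to 0.11 for DNAJB1, -0.0189 to 0.15 for HSPA8 and -0.0362 to 0.0209 for HSPA5, and of -0.11 to 0.057 for HSPA8 in Adh against Sep. In mouse the ranges were -0.0126 to 0.0387 for Dnajb1, -0.0306 to 0.0246 for Hspe1, which also reached 0.0011 without the filter, and -0.0149 to 0.0424 for Hspa5. HSPA1A and HSPA1B, tested only without the filter, had adjusted p of at least 0.342.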

Other observations

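The division of HSPA8 and DNAJB1 by replicate number was put to a test chosen after their values were seen. With group and replicate number in 1 edgeR model, the number terms passed an adjusted p of 0.05 for 491 of 12861 human genes (3.82%), DNAJB1 (adjusted p = 0.0117) and HSPA8 (adjusted p = 0.0289) among them. The other 6 tested chaperone genes had adjusted p of 0.462 to 0.932. Of the 102 tested genes of the wider lists, 6 passed (5.88%). SDF2L1, HSPBP1, CLPP, LONP1, STUB1 and HSF1 were lowest in replicate 1 of each fraction, and HSF1 measured 86.8 to 145 CPM in Sep, 117 to 169 CPM in Susp and 90.1 to 144 CPM in Adh.

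In mouse, 439 of 12201 genes passed (3.60%), and Hspa1b ranked 2 by p among them all (adjusted p = 1.23e-05), after Adm (adjusted p = 2.52e-06). Hspa1a (adjusted p = 0.434) and the other 8 counterparts did not pass. The genes with a pattern most like HSPA8 over the 12 REC-1 libraries, a choice also made after its values were seen, were POLH (Pearson r = 0.89), GDA (r = 0.88), KDM4A (r = 0.85), MAPK14 (r = 0.85) and GSG2 (r = 0.84). What the replicate number stands for was not tested.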
